A study of Mus musculus with 6 samples.

Results

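Potassium channel genes were compared between ipsilateral and contralateral retinal ganglion cells (RGCs), the neurons whose axons leave the eye and either stay on their own side or cross at the optic chiasm. The genes were all those whose array annotation gives a single symbol starting with Kcn, the symbol stem of potassium channel subunits, and each was represented by its brightest probe set (the group of short probes that reads out a transcript), chosen by the mean over all 6 arrays. This rule found 84 genes out of 18193 on the array. They were covered by 167 probe sets, 46 of the genes had 2 or more, and no probe set named a Kcn gene together with another gene. A gene was taken as measured when its mean was at or above the 20th percentile of all probe sets, a log2 intensity of 4.74, and 70 of the 84 genes were. The rule itself used no difference between the sides, and the filter looked at brightness over all arrays. The members and their families were, however, chosen with earlier results of these data known.

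All samples came from C57BL/6J mouse embryos, with no genetic change named, at E16.5 (embryonic day 16 in the sample names), whose optic tract had been cut on one side and dyed with rhodamine-dextran for 2 h. Dye-filled cells from the retina on the same side (ipsilateral RGCs) or from the opposite retina (contralateral RGCs) were sorted by FACS without DAPI-stained dead cells. Each of the 3 rounds gave 1 sample of each kind from the pooled retinas of 2 litters, so n = 3 per side, and a round is a separate labeling and sort. RNA was amplified as cDNA before hybridization to a mouse whole-genome expression array. The rounds used were those with the clearest enrichment of the ipsilateral gene Zic2 by PCR, which limits how far they stand for all preparations.

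Potassium channels let potassium ions leave or enter the cell, which sets the resting potential and ends each action potential. Most are assembled from pore-forming subunits (Kv, calcium-activated, inward rectifier or two-pore-domain types) together with auxiliary subunits that move them to the membrane or alter their gating. Developing RGCs gain voltage-gated potassium currents as they become excitable and take part in spontaneous retinal waves, and blocking voltage-gated potassium channels disturbs the growth of retinal axons in frog embryos.

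The sorted cells carried RGC transcripts: the 14 measured of 15 listed RGC markers averaged between log2 10.28 and 11.35 on every array. All 14 were lower in the ipsilateral sample of every round, with a median difference of −0.44 on the log2 scale (ipsilateral minus contralateral), and none was called by limma. Markers of some other cells were higher in ipsilateral samples. The 10 microglia and macrophage markers averaged 8.60 to 9.42 on the ipsilateral arrays and 4.56 to 5.47 on the contralateral arrays, and 7 of the 10 were called, or 6 with the round as a block. Averages of 8 markers of cycling progenitors were 8.49 to 9.90 against 7.20 to 7.43 (1 called, Sox2, and 0 with the block), and those of 4 photoreceptor precursor markers 6.37 to 7.07 against 5.40 to 5.45 (0 called). The array means of the lists for endothelial cells and pericytes, for glia and for amacrine and horizontal cells overlapped between the sides across rounds, but within each of the 3 rounds the ipsilateral mean was the higher one. The genes of these lists did not share a direction. Their median differences were 0.03, 0.24 and 0.16, and 3, 2 and 3 of 6 measured genes were lower in ipsilateral samples by the mean. The mean of the pigment epithelium markers was lower in ipsilateral samples in round 1 and higher in rounds 2 and 3. The part of these other cells in the differences given here was not tested, and in such pooled samples fewer cells of a type and less RNA per cell cannot be told apart.

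No measured potassium channel gene passed the test between ipsilateral and contralateral RGCs. In the limma fit over the whole array, 0 of the 70 measured genes passed both thresholds (2-fold, and a Benjamini–Hochberg adjusted p under 0.05) in the ipsilateral direction, beside 55 of all 15346 measured genes (0.358%), and 0 did so in the contralateral direction, beside 0 of all genes (0%). The study's own list, made at the same thresholds with another program, holds genes in both directions but no Kcn symbol. In the limma fit the adjusted p of every measured member was 1. With the round as a block, which compares the samples within a round, limma again called 0 members higher, where it called 0.319% of all genes, and 0 members lower, where it called 0% of all genes. The lowest adjusted p of a member in the blocked limma fit was 0.142, for Kcnc2. On simulated arrays, the fit without the block recovered 0 of 50 changes of log2 size 1 and 15 of 50 of size 2. A missing call therefore does not exclude a 2-fold difference.

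The sizes of the differences were small for most members and larger for a few. Over the 70 measured genes the median difference was −0.03, beside −0.01 over all measured genes. In the 3 rounds the median of the members was −0.02, −0.02 and −0.13. By the mean, 33 members were higher and 37 lower in ipsilateral RGCs, 55 differed by less than 0.25 in size and 9 by 0.5 or more (6 lower and 3 higher), and the whole range ran from −0.96 (Kcns2) to 0.67 (Kcnj9). For all measured genes, the 5th percentile of the difference was −0.51 and the 92nd 0.49. No measured member reached a 2-fold difference of the means: the count was 0 lower, against 0.222% of all genes, and 0 higher, against 2.75% of all genes.

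The direction within rounds was less even. In all 3 rounds, 13 of the 70 members (18.6%) were lower in ipsilateral RGCs, near the 20.2% of all measured genes. Those 13 were the voltage-gated pore genes Kcnc2, Kcnd2, Kcnh8 and Kcna7, the silent modifiers Kcns2, Kcnf1, Kcng1 and Kcns1, the two-pore-domain genes Kcnk2 and Kcnk4, the inward rectifiers Kcnj1 and Kcnj5, and the auxiliary gene Kcnmb4. Of these 13, Kcnh8 passed the filter only through its contralateral mean. Only 2 measured members (2.86%), Kcnq1ot1 and Kcnt1, were higher in all 3 rounds, while 17.6% of all measured genes were.

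**Figure D1:**
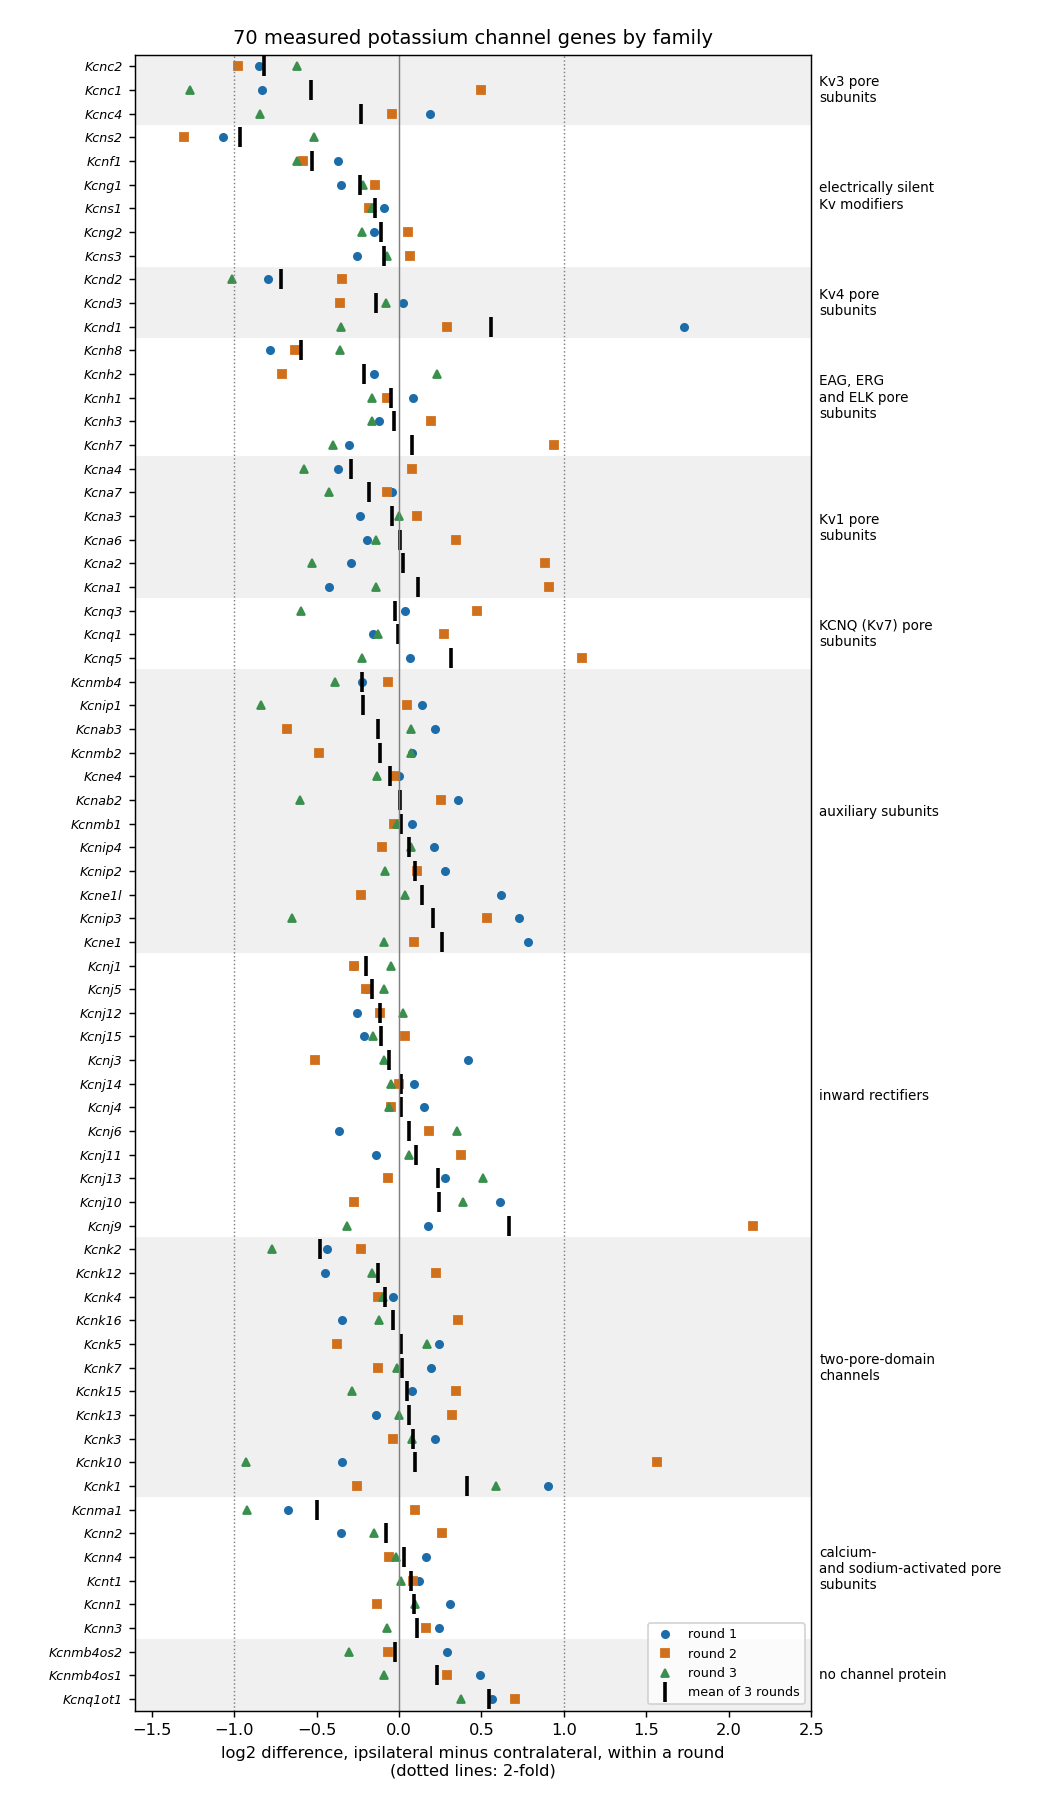
Log2 difference between ipsilateral and contralateral RGCs (x axis) for each of the 70 measured Kcn genes (rows, grouped by family), with 1 symbol per round and a black bar for the mean of 3 rounds. The dotted lines mark a 2-fold difference, which no mean reaches, and the 6 silent modifiers all have means below 0.

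The rounds themselves moved most members more than the side did. For 67 of the 70 measured members, the range of the 3 round means was larger than the size of the difference between the sides. Of the 70, 59 had their lowest level in round 1 and 50 their highest in round 2, the same order as the medians of all probe sets (5.81, 6.70 and 6.33 on the ipsilateral arrays and 5.80, 6.65 and 6.26 on the contralateral arrays of rounds 1 to 3). For this reason the values are given by round.

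The electrically silent Kv modifiers are subunits that form no channel alone but join Kv2 pore subunits and change their gating. All 6 measured of 9 were lower in ipsilateral RGCs by the mean, with a median of −0.19, and 4 of the 6 were lower in every round, but none passed the test. Kcns2, which codes for the modifier Kv9.2, had the largest difference of any measured member. Its log2 intensities were 7.38, 6.90 and 7.61 in the ipsilateral samples of rounds 1 to 3 and 8.45, 8.20 and 8.13 in the contralateral samples. The sides therefore did not overlap, and the lowest contralateral value lay above the highest ipsilateral one.

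The mean difference of Kcns2 was −0.96 ± 0.40 (SE from limma), a 1.95-fold lower level, with a 95% interval from −1.81 to −0.11, and its limma adjusted p was 1. Its second probe set gave 5.33, 5.98 and 5.90 in ipsilateral and 6.46, 6.49 and 7.02 in contralateral samples, again with no overlap and a mean difference of −0.92. Kcns2 was the only measured member with all ipsilateral arrays below all contralateral ones, 1 of 70, against 1.98% of all measured genes. No measured member showed the opposite pattern, against 3.84% of all measured genes. At an unadjusted limma p under 0.05 Kcns2 was also the only lower member, where 0.300% of all genes were lower, and 0 members were higher, where 2.74% of all genes were.

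Kcnf1 codes for Kv5.1, another silent modifier. It had 6.89, 7.43 and 6.99 in ipsilateral RGCs and 7.26, 8.01 and 7.60 in contralateral RGCs. Each round showed a lower ipsilateral value, by −0.37, −0.58 and −0.62, although the sides overlapped across rounds. The mean difference was −0.52 ± 0.40 (SE, limma). Kcng1 (Kv6.1) differed by −0.24 and stood close to the filter, with group means of 4.95 and 5.18. The other members of the family, Kcns1, Kcng2 and Kcns3, had differences between −0.14 and −0.09.

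Kv3 pore subunits make fast delayed rectifier channels that let neurons fire at high rates. All 3 measured genes had lower means in ipsilateral RGCs, with a median of −0.53, and only Kcnc2 did so in every round. Kcnc2 codes for Kv3.2. In ipsilateral samples it read 7.70, 8.94 and 8.51 and in contralateral samples 8.55, 9.92 and 9.13. The lowest contralateral value, of round 1, lay within the ipsilateral range, but the within-round differences of −0.85, −0.98 and −0.62 were close to each other.

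The mean difference of Kcnc2 was −0.82 ± 0.47 (SE, limma), with a 95% interval from −1.83 to 0.20 in the fit without the block and from −1.19 to −0.44 with it. RefSeq (GRCm38.p6) lists 4 starts for this gene, and the 250 bases before the most upstream start are shown because Kcnc2 had the lowest p of the members in the blocked fit. The capitals mark a GC box (GGGCGG on either strand), the letters bound by Sp family factors.
Kcnc2, chr10:112269767-112270016, plus strand: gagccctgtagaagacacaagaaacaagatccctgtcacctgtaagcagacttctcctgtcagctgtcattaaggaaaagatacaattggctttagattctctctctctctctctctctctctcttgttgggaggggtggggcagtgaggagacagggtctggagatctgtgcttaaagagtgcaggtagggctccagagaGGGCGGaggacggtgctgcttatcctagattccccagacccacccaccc

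Kcnc1, which codes for Kv3.1, was less even. It read 6.59, 8.43 and 7.56 in ipsilateral samples and 7.42, 7.93 and 8.83 in contralateral samples. The ipsilateral value was lower in rounds 1 and 3 but higher in round 2, and the mean difference was −0.53. Its other 3 probe sets differed by 0.18, −0.25 and −0.53, so they do not share a direction. With array weights, which give noisier arrays less influence, Kcnc1 was the only member called, at −1.10 with a limma adjusted p of 0.0267. Those weights stopped before converging, so this call is uncertain. With weights estimated gene by gene Kcnc1 was not called (−0.72, limma adjusted p = 1). Kcnc4 (Kv3.4), the brightest probe set of the family, had a difference of −0.23 that came from round 3 (−0.85), with 0.19 and −0.04 in rounds 1 and 2.

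Kv4 pore subunits carry the transient A-type current that delays firing. The 3 genes had a median of −0.14 and pointed in different directions. Kcnd2, which codes for Kv4.2, had 6.16, 7.10 and 6.10 in ipsilateral RGCs and 6.95, 7.45 and 7.11 in contralateral RGCs. The ipsilateral value of round 2 lay among the contralateral values, while the other 2 lay below all of them. Its mean difference was −0.72 ± 0.42 (SE, limma), and 2 further measured probe sets gave −0.65 and −0.43. The remaining probe set, below the filter, gave 0.44.

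RefSeq (GRCm38.p6) gives 1 start for Kcnd2, and the 250 bases before it are shown with its GC box in capitals, for comparison with Kcnc2.
Kcnd2, chr6:21215096-21215345, plus strand: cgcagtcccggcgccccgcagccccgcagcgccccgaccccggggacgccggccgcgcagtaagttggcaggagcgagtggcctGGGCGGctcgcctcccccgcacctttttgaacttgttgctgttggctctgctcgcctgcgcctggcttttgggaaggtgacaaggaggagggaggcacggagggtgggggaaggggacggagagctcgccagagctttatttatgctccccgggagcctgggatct
The window of Kcnd2 is 68.8% G and C with 22 CpG pairs, and that of Kcnc2 52.4% with 2. RefSeq windows, here from 250 bases before to 50 after a start, were found for 64 of the 84 genes (89 windows), Kcns2 not among them. A GC box was in 48.3% of the member windows and in 35.7% of all 32851 windows. The letters TATAAA were in 5.62% against 13.6%, the E box CAGCTG in 27.0% against 16.3%, and the cyclic AMP element TGACGTCA in 0% against 1.79%, all searched on both strands. The median GC content was 58.0% in member windows and 52.7% in all windows. These are counts of letters and say nothing about whether a factor binds.

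Kcnd1 (Kv4.1) had the second largest positive difference among measured members, 0.56, but its rounds gave 1.73, 0.29 and −0.35. Most of it came from round 1, and its other 2 probe sets gave −0.02 and 0.05. Kcnd3 (Kv4.3), the brightest probe set of the Kv4 family, had means of 8.87 ± 0.43 and 9.01 ± 0.58 (SD, n = 3) in ipsilateral and contralateral RGCs, a difference of −0.14.

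**Figure D2:**
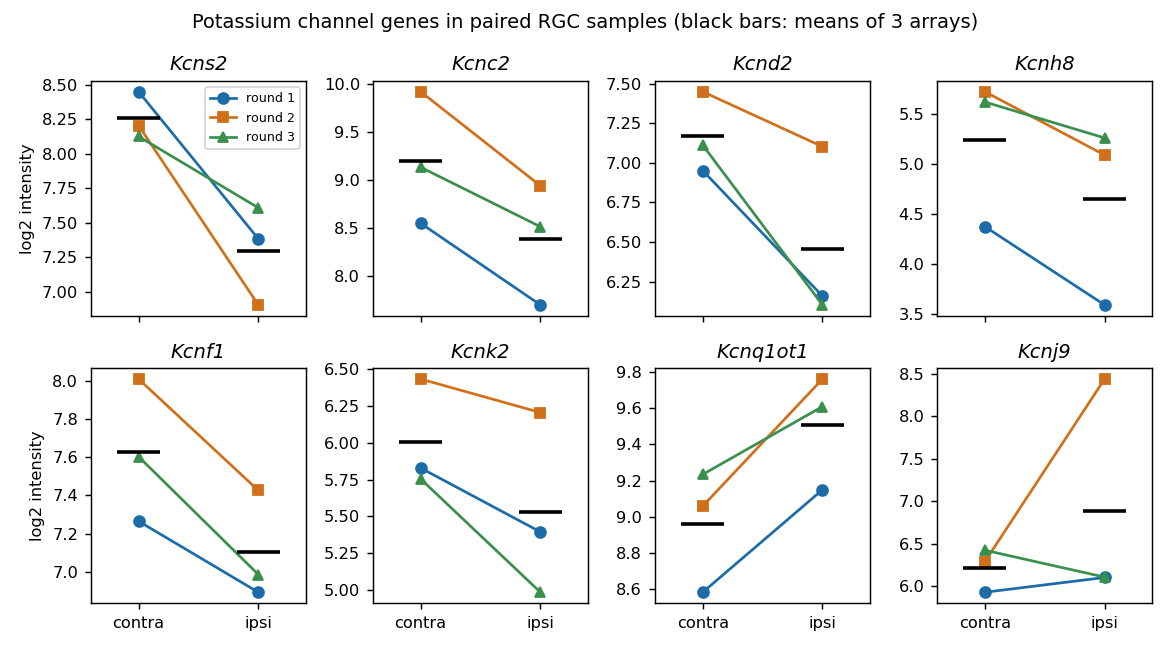
Log2 intensity (y axis, a separate range in each panel) of 8 Kcn genes in the contralateral and ipsilateral sample of each round, with a line for each round and the mean of each side as a black bar. In 6 panels all 3 lines go down toward ipsilateral RGCs, in Kcnq1ot1 all 3 go up, and in Kcnj9 the line of round 2 alone goes up steeply, by 2.15.

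Among the EAG, ERG and ELK pore subunits, the family of the cardiac hERG channel, 4 of 5 measured genes had lower means in ipsilateral RGCs, with a median of −0.05. Kcnh8 codes for an ELK-type channel. It read 3.59, 5.09 and 5.26 in ipsilateral samples and 4.37, 5.72 and 5.62 in contralateral samples, so it was lower in every round (−0.78, −0.63 and −0.36) at a dim level close to the filter. Its ipsilateral mean of 4.65 lay below the filter level of 4.74 and its contralateral mean of 5.24 above it. Kcnh8 therefore counted as measured only through the side where it was high. The mean difference was −0.59 ± 0.53 (SE, limma). Kcnh3, another ELK-type gene and the brightest of the family, had means of 8.13 and 8.16.

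The Kv1 pore subunits, low-threshold channels found along axons and at their terminals, had a median of −0.02 over 6 measured genes. Kcna4 (Kv1.4) had a mean difference of −0.29, with rounds of −0.37, 0.08 and −0.57. Kcna7 (Kv1.7), the brightest probe set of the group, differed by −0.18. Kcna1 and Kcna2, which code for the axonal subunits Kv1.1 and Kv1.2, had means within 0.12 of each other on the sides. At their brightest probe sets both read higher in ipsilateral RGCs in round 2, by 0.91 and 0.89, and lower in rounds 1 and 3. Other measured probe sets of Kcna2 did not share this pattern, with 1.02, −0.18 and −0.22 at 1 and 0.31, 0.22 and −0.26 at another. The 3 KCNQ genes had a median of −0.00. Kcnq5, a subunit of the M-type channels that restrain repetitive firing, had a difference of 0.32, and round 2 (1.11) stood apart from rounds 1 and 3 (0.06 and −0.23).

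Calcium- and sodium-activated channels had a median of 0.05 over 6 measured genes. Kcnma1 codes for the pore of the BK channel, which calcium and voltage open together. At its brightest probe set it read 6.84, 9.18 and 7.78 in ipsilateral and 7.51, 9.09 and 8.70 in contralateral samples. The mean difference was −0.50 (just under 0.5 in size), and round 2 (0.10) did not share its direction. A second probe set of nearly equal mean intensity gave 7.59, 7.98 and 7.40 against 8.23, 8.98 and 8.35, with no overlap between the sides and a mean difference of −0.86. The other 2 measured probe sets gave 0.13 and −0.74, and at the one with −0.74 the sides again did not overlap. The remaining probe set, below the filter, gave −0.51. Kcnt1, a sodium-activated channel gene, was higher in every round but only by 0.12, 0.08 and 0.01, and the SK channel genes Kcnn1, Kcnn2 and Kcnn3 lay between −0.08 and 0.11.

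Inward rectifiers hold the resting potential and include the channels opened by G proteins and closed by ATP. Their 12 measured genes had a median of 0.01. Kcnj9, which codes for the G protein-gated subunit GIRK3, had the largest positive difference of any measured member, 0.67. Its values were 6.10, 8.44 and 6.11 in ipsilateral and 5.93, 6.29 and 6.42 in contralateral samples. A single ipsilateral array, that of round 2, was high, and the other 2 lay within the contralateral range. The 3 other probe sets of Kcnj9 gave −0.50, −0.24 and 0.02, and none of them showed the high value of round 2. Kcnj11, the pore of ATP-sensitive channels and the brightest of the family, had means of 8.22 and 8.12.

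Two-pore-domain channels carry the background potassium leak, and their 11 measured genes had a median of 0.02. Kcnk2, which codes for the mechanosensitive channel TREK-1, read 5.39, 6.21 and 4.98 in ipsilateral and 5.83, 6.43 and 5.75 in contralateral samples. It was lower in each round (−0.44, −0.23 and −0.77), with a mean difference of −0.48 ± 0.44 (SE, limma) and overlapping sides. Kcnk10 codes for the related channel TREK-2. Its rounds gave −0.35, 1.57 and −0.93 for a mean of 0.10, and its second probe set −0.55, so no direction can be given.

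Kcnk1 codes for TWIK-1, and its probe sets differed in size. The brightest gave a mean difference of 0.41, with 0.90, −0.25 and 0.59 in the 3 rounds. The other read 6.88, 6.76 and 8.57 in ipsilateral and 5.80, 6.10 and 5.82 in contralateral samples. All its ipsilateral values lay above all contralateral ones, and the mean difference was 1.49 ± 0.49 (SE), with a limma adjusted p of 0.76 and, with the block, of 0.23.

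The auxiliary subunits, which include the Kv beta subunits, the calcium sensors that join Kv4 channels (KChIPs), the KCNE peptides and the BK beta subunits, had a median of 0.01 over 12 measured genes. Kcnmb4, the neuronal BK beta subunit, was lower in ipsilateral RGCs in every round, by −0.23, −0.07 and −0.39. Kcnip1, a KChIP and the brightest of the family, differed by −0.22, of which nearly all came from round 3 (−0.84), and Kcnip3 had a mean of 0.20 with rounds of 0.73, 0.53 and −0.65. Kcne1 had a mean of 0.26, of which most came from round 1 (0.78). Kcnab2 codes for a Kv beta subunit. Its brightest probe set had a mean difference of 0.00, and the other read 5.24, 5.96 and 5.88 in ipsilateral and 6.29, 7.02 and 6.62 in contralateral samples. The sides of that second probe set did not overlap, and its mean difference was −0.95. The probe sets singled out here for Kcnk1, Kcnab2 and Kcnma1 were chosen after their values were seen.

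**Figure D3:**
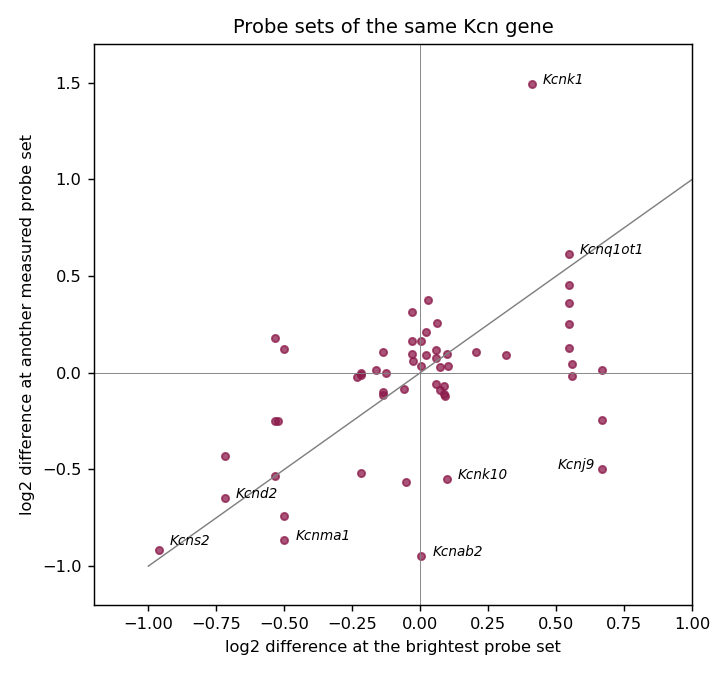
Mean log2 difference between ipsilateral and contralateral RGCs at the brightest probe set of a Kcn gene (x axis) and at each other measured probe set of the same gene (y axis), for 56 other probe sets of 32 genes. The grey diagonal marks equal values, Kcns2 lies near it at −0.96 and −0.92, and Kcnk1, Kcnab2 and Kcnj9 lie far from it.

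Of the 32 members with 2 or more measured probe sets, 17 had the same direction at all of them. Of all 167 probe sets, 126 were measured and limma called 0 of these in either direction.

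Of the 84 symbols, 3 name RNAs that code for no channel: Kcnq1ot1, the long noncoding RNA transcribed from the paternal allele inside the imprinted Kcnq1 locus, and Kcnmb4os1 and Kcnmb4os2, transcripts opposite to Kcnmb4. Kcnq1ot1 read 9.15, 9.76 and 9.61 in ipsilateral and 8.58, 9.06 and 9.23 in contralateral samples. It was higher in each round, by 0.57, 0.70 and 0.37, and the lowest ipsilateral value lay just below the highest contralateral one. The mean difference was 0.55 ± 0.40 (SE, limma), with a 95% interval from −0.32 to 1.41 without the block and from 0.18 to 0.92 with it. All of its 6 probe sets had a positive mean, from 0.13 to 0.61. Its limma adjusted p was 1, and 0.227 with the block.

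The 250 bases before the RefSeq start of Kcnq1ot1 (GRCm38.p6) are shown because it was the measured member with the largest difference that was higher in every round. They hold none of the motifs searched, and the sequence is printed in the direction of transcription.
Kcnq1ot1, chr7:143296548-143296797, minus strand: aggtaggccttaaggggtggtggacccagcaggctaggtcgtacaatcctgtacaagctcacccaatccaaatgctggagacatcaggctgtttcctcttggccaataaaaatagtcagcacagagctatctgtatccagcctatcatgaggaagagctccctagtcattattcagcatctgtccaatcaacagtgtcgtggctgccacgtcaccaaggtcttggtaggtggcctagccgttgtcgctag
Kcnq1, the protein-coding gene of the locus, had a difference of −0.00. Kcnmb4os1 differed by 0.23 and Kcnmb4os2 by −0.03, beside −0.23 for Kcnmb4. The strand of the labelled cDNA is not given in the sources used here, so RNA of the opposite strand at these loci cannot be told apart from that of the named gene.

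Some channel genes are best known from cells other than RGCs, and 5 of 8 such members were measured, with a median difference of 0.06. Kcnk13, Kcna3 and Kcnn4 are known from microglia and other immune cells. They differed by 0.06, −0.04 and 0.03, beside a median of 4.19 for the 10 microglia and macrophage markers. Kcnj10, known from glia, differed by 0.24, and Kcnj13, known from pigment epithelium, also by 0.24, beside medians of 0.24 for the glial and −0.04 for the pigment epithelium markers. Over all arrays Kcnk13 and Kcnj10 had mean log2 intensities of 4.95 and 4.79, close to the filter, so their levels are less certain. The contralateral mean of Kcnj10, 4.67, lay below the filter, so it passed only through its ipsilateral mean. The means of Kcna3, Kcnn4 and Kcnj13 were 5.32, 6.57 and 7.73. The part of other cells in the differences of these channel genes was not tested.

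The 14 members below the filter were Kcnab1, Kcna5, Kcne2, Kcne3, Kcng4, Kcnh5, Kcnj2, Kcnj8, Kcnj16, Kcnk6, Kcnt2, Kcnu1, Kcnv1 and Kcnv2, and they were not tested. Kcnk6, which codes for TWIK-2, a channel also known from macrophages, was the one with the largest difference among them and is named after its values were seen. It read 3.95, 7.54 and 4.80 in ipsilateral and 2.89, 4.21 and 4.50 in contralateral samples. The mean difference was 1.56, the sides overlapped, and the ipsilateral array of round 2 alone was bright. The part of the microglia in this value was not tested.

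**Figure D4:**
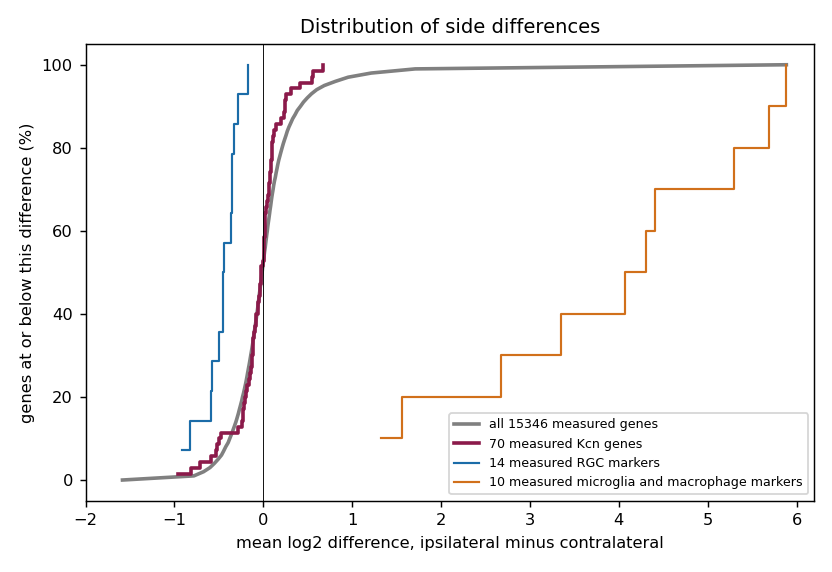
Share of genes (y axis, %) at or below a given mean log2 difference between ipsilateral and contralateral RGCs (x axis), for all 15346 measured genes, the 70 measured Kcn genes, 14 RGC markers and 10 microglia and macrophage markers. The Kcn curve runs along that of all genes around 0 and ends at 0.67, the RGC markers all lie below 0 and the microglia markers all lie above 1.

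The distribution of the differences shows where the channel genes stood between the other groups. Their median of −0.03 was nearer to that of all genes (−0.01) than to that of the RGC markers (−0.44). At the brightest probe sets of measured members, the highest value of 0.67 was below that of every microglia marker. The other probe set of Kcnk1 (1.49) and Kcnk6, below the filter (1.56), lay above the lowest of these markers (Fcer1g, 1.33). The part of microglia in these values was not tested.

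Genes of proteins that work with potassium channels but carry other symbols were read from the same fit. Of 25 listed, 20 were measured, and 0 were called in either direction, with a median of −0.07. Dlg1 codes for SAP97, a scaffold that clusters Kv channels at the membrane. It read 6.89, 8.80 and 7.70 in ipsilateral and 5.91, 7.44 and 6.52 in contralateral samples, higher in each round by 0.98, 1.36 and 1.18. The sides overlapped across rounds, and the mean difference was 1.17 ± 0.54 (SE), with a limma adjusted p of 1, and of 0.081 with the block. The study, with another program, lists this probe set of Dlg1 as higher in ipsilateral RGCs at the same fold and adjusted p thresholds. A second probe set of Dlg1 gave 0.35.

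Dlg2, which codes for the related scaffold PSD-93, pointed the other way, with −0.40, −0.67 and −0.37 and a mean of −0.48. Cntn2 codes for a cell adhesion molecule of axons that takes part in placing Kv1 channels beside the node. It differed by 0.46, and Vapb, a membrane protein of the endoplasmic reticulum that binds Kv2 channels, by −0.43.

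The precision of these values came from 3 samples per side. The median SE of a member was 0.45 without and 0.17 with the block. The SEs printed for single genes are from the fit without the block and so include the spread between rounds. With the block, the 95% interval was −1.45 to −0.47 for Kcns2, −0.89 to −0.16 for Kcnf1 and −1.17 to −0.26 for Kcnd2. It was −0.98 to −0.20 for Kcnh8 and −0.90 to −0.06 for Kcnk2. These intervals are not adjusted for the number of genes. A 95% interval inside 2-fold in both directions was found for 18 of the 70 members without the block and for 60 with it, so for the other members a 2-fold difference is not excluded by the interval. In the blocked limma fit, 6 of the 70 members were lower and 1 was higher at an unadjusted p under 0.05, beside 1018 and 1214 of all 15346 measured genes. The 6 were Kcns2, Kcnc2, Kcnd2, Kcnh8, Kcnf1 and Kcnk2, and the 1 was Kcnq1ot1. Among the 6, Kcnh8 passed the filter only through its contralateral mean. With 3 samples against 3, the smallest p that an exact two-sided permutation test can give for 1 gene is 0.10.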

How the data were processed

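Gene expression was read from 6 Affymetrix mouse whole-genome arrays. Each deposited value is the log2 intensity of a probe set, which the authors obtained by RMA in Affymetrix Expression Console 1.1, per the labels. Whether the arrays were normalized together is not given in the sources used here. After 64 controls were left out, 36029 probe sets passed the 20th percentile filter. The fit used lmFit and eBayes of limma 3.58.1 (R 4.3.3) with no block. A call needed a 2-fold change and an adjusted p under 0.05 (Benjamini–Hochberg, all 36029 probe sets). The thresholds are those of the study's methods, which used GeneSpring and name no test. Arrays with the same replicate number share a round of treatment: after centring on group means they correlated at r = 0.511, 0.541 and 0.612 across probe sets, and arrays of different numbers at −0.353 to −0.207. Genes named were the 10 measured members with the largest difference in each direction, the brightest of each family, any called member and 4 partners, and any other was singled out after its values were seen. The members, families and lists were chosen with earlier results of these data known. Alternatives were the replicate block, filters, normalizations, variance models, array weights, thresholds, other probe sets and leaving out each array. The fit without the block was tested on simulated data. The number of arrays limits the precision.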

Additional observations from a re-analysis of the deposited data

How the results depend on the processing

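The count of potassium channel genes called was 0 in both directions with the replicate block (0 higher and 0 lower), without the filter or with one at the 50th percentile, after quantile normalization or centring of the arrays, with an intensity trend, at 1.5-fold or no fold threshold, at 2-fold with an unadjusted p, with other probe sets and without any 1 array. The exception was array weights, where 1 member (Kcnc1) was called lower. Those weights stopped before converging, and with weights gene by gene, an alternative added after seeing the data, the count was 0. The partner count was 1 (Dlg1) with array weights and 1 at 2-fold with an unadjusted p. The members' median was −0.10 with array weights. Leaving out 1 array moved it between −0.27 (without contralateral replicate 1) and 0.18 (without ipsilateral replicate 1), and that of all genes between −0.26 and 0.22. Dropping the round 2 arrays gave −0.26 (ipsilateral) and 0.15 (contralateral). The replicate block changed no call of a member or partner, and of the other genes counted it ended those of P2ry12 (microglia) and Sox2 (progenitors). Of 299 values of 31 named genes with all arrays kept, 17 reversed. At the second brightest probe set these were Kcnc1 (0.18), Kcnd1 (−0.016), Kcnh3 (0.16), Kcnj9 (−0.50) and Kcnk10 (−0.55). With the mean of all probe sets they were Kcnh3 (0.14), Kcnj9 (−0.014) and Kcnk10 (−0.23). With array weights they were Kcnd1 (−0.21), Kcne1 (−0.043), Kcnip3 (−0.49), Kcnj9 (−0.093), Kcnk10 (−0.69), Kcnmb4os1 (−0.037) and Kcnq5 (−0.11), and with weights gene by gene Kcnip3 (−0.15) and Kcnk10 (−0.11). Leaving out 1 array reversed 24 of 186 values, with ranges of −0.0070 to 0.75 for Cntn2, −0.71 to 0.019 for Kcna4, −0.56 to 0.15 for Kcna7, −0.46 to 0.025 for Kcnc4, −0.46 to 0.11 for Kcnd3, −0.10 to 0.55 for Kcne1, −0.21 to 0.19 for Kcnh3, −0.64 to 0.023 for Kcnip1, −0.35 to 0.65 for Kcnj10, −0.11 to 0.36 for Kcnj11, −0.11 to 1.06 for Kcnj9, −0.0014 to 0.72 for Kcnk1, −0.52 to 0.40 for Kcnk10, −1.12 to 0.049 for Kcnma1, −0.12 to 0.45 for Kcnmb4os1 and −0.23 to 0.88 for Kcnq5. The causes were not tested. Signal over background could not be read from these summarized values, so a dim member such as Kcnh8 has a less certain level.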
